A study of Mus musculus with 11 samples.

Results

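The 45 genes described here encode the digestive enzymes and membrane proteins of the lysosome: 10 cysteine proteases, 4 other proteases, 13 glycosidases and sulfatases, 7 lipid hydrolases and soluble cofactors, 9 membrane proteins and 2 lysozymes. They were chosen by gene symbol from a list of known lysosomal genes, and all 45 were found among the 23282 entries of each count table. Of these, 40 passed the filter on low counts that left 6987 genes for testing. The 5 others were Ctse, Ctsf, Manba, Arsb and Sgsh.

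The libraries came from macrophages of the mouse colon sorted as CD45+CD11b+Ly6G-Ly6C-MHCII+CD64+ cells, in a colitis model in which 2.5% dextran sodium sulphate (DSS, a polymer that injures the colonic epithelium) was given in the drinking water for 5 days. There were 3 libraries labelled Csf1r-EP4-/- and 2 wild-type (WT) libraries at day 0, and 3 of each at day 39. EP4 is a receptor for prostaglandin E2 encoded by Ptger4, and the strain name says that it was deleted under the Csf1r promoter, which is active in macrophages and in other myeloid cells. The labels do not give the driver line, the genetic background, the animals' age, the number of animals behind a library or whether the mice of day 0 had taken DSS. Nothing in them says that the replicates came from separate animals, so the tests measure the spread between these libraries, which may be technical. The libraries labelled Csf1r-EP4-/- are called labelled knockout below.

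Lysosomes are acidic organelles in which macrophages break down engulfed cells, microbes and the contents of their own autophagosomes. Most soluble hydrolases are delivered there from the Golgi by a mannose 6-phosphate tag, while heavily glycosylated membrane proteins line the inside of the lysosomal wall. Many lysosomal genes share a promoter element, the CLEAR element, with the core CACGTG, which is bound by the transcription factors TFEB and TFE3. Loss of single hydrolases or cofactors causes the lysosomal storage diseases.

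The core of this shared element was looked for in the promoters of the genes. RefSeq promoter windows (mouse GRCm38.p6, 250 bases before to 50 bases after the annotated start) were found for 39 of the 45 genes. CACGTG, which reads the same on both strands, was present in 12 of the 39, or 30.8%, against 2187 of 27025 genes with such a window, or 8.09%. The longer string GTCACGTG, which contains CACGTG and was searched on both strands, was present in 9 of the 39, or 23.1%, against 689 genes, or 2.55%. These 9 were Arsa, Ctsa, Ctsd, Gla, Glb1, Lamp1, Lgmn, Mcoln1 and Sgsh. The element is known from lysosomal genes and the 45 were chosen as such, so a higher share among them is no independent finding. A match is a description of the letters and does not show that a factor binds there. The 4 sequences below are shown because their genes hold GTCACGTG and also had at least 100 counts in every library. Each line gives the 120 bases directly before the annotated start, on the strand of the gene, with CACGTG in capitals. The stretches lie at chr8:13159041-13159160 on the plus strand for Lamp1, at chr2:164833653-164833772 on the plus strand for Ctsa, at chr7:142387828-142387947 on the minus strand for Ctsd and at chr12:102439093-102439212 on the minus strand for Lgmn.
Lamp1: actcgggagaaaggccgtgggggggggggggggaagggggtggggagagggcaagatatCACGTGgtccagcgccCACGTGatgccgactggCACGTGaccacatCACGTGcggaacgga
Ctsa: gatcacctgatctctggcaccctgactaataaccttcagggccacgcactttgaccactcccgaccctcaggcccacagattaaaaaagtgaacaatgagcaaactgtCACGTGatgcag
Ctsd: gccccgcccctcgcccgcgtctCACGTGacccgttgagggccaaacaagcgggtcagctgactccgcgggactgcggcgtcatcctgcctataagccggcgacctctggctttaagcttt
Lgmn: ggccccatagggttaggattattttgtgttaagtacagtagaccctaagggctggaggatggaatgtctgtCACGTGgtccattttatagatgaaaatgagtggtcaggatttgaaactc
Lamp1 carried 4 copies of the core in these 120 bases and the other 3 genes carried 1 each. Ctsa and Lgmn each have 2 annotated starts, and the window that holds the core is shown.

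Library totals ran from 4003299 to 14207919 counts, and the 45 genes took 0.957% to 2.61% of them. Psap alone made up 15.3% to 39.2% of the counts of the 45 genes. Levels are given below as CPM (reads per 1000000) on library sizes scaled by the trimmed mean of M values (TMM). The kit reads the 3′ end of each transcript, so CPM is not divided by transcript length, and levels of different genes are compared here on that scale. Macrophage identity was checked with 10 marker genes that are not among the 45. Csf1r, C1qa, C1qb and C1qc, which encode the receptor named in the strain label and the chains of complement C1q, had at least 100 counts in all 11 libraries. Cx3cr1 reached 100 counts in 10 libraries, Adgre1 in 9, Mrc1 in 8 and Cd14 in 7. Fcgr1, which encodes the sorted surface protein CD64, had 0 counts in 4 libraries, and Mertk had 0 in all of them. Of the monocyte markers, Ccr2 and Vcan reached 100 counts in 5 libraries each, and Ly6c2 and Plac8 in 3 each. Ptger4 had 1350, 0 and 890 counts in the labelled knockout libraries of day 0 and 0 in both WT libraries of that day. At day 39 it had 1, 8 and 4501 counts in the labelled knockout and 1481, 152 and 7286 in WT. These counts do not follow the labels. Which exon was deleted is not given, and a read near the 3′ end can lie outside it, so they cannot check the labels. Each count of called genes below was also made without the 3 labelled knockout libraries with many Ptger4 counts, and no lysosomal gene passed the test there either. That leaves 1 labelled knockout library at day 0, which the fit assumes to vary like the other groups, so these 0 calls say little about stability.

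**Figure D1:**
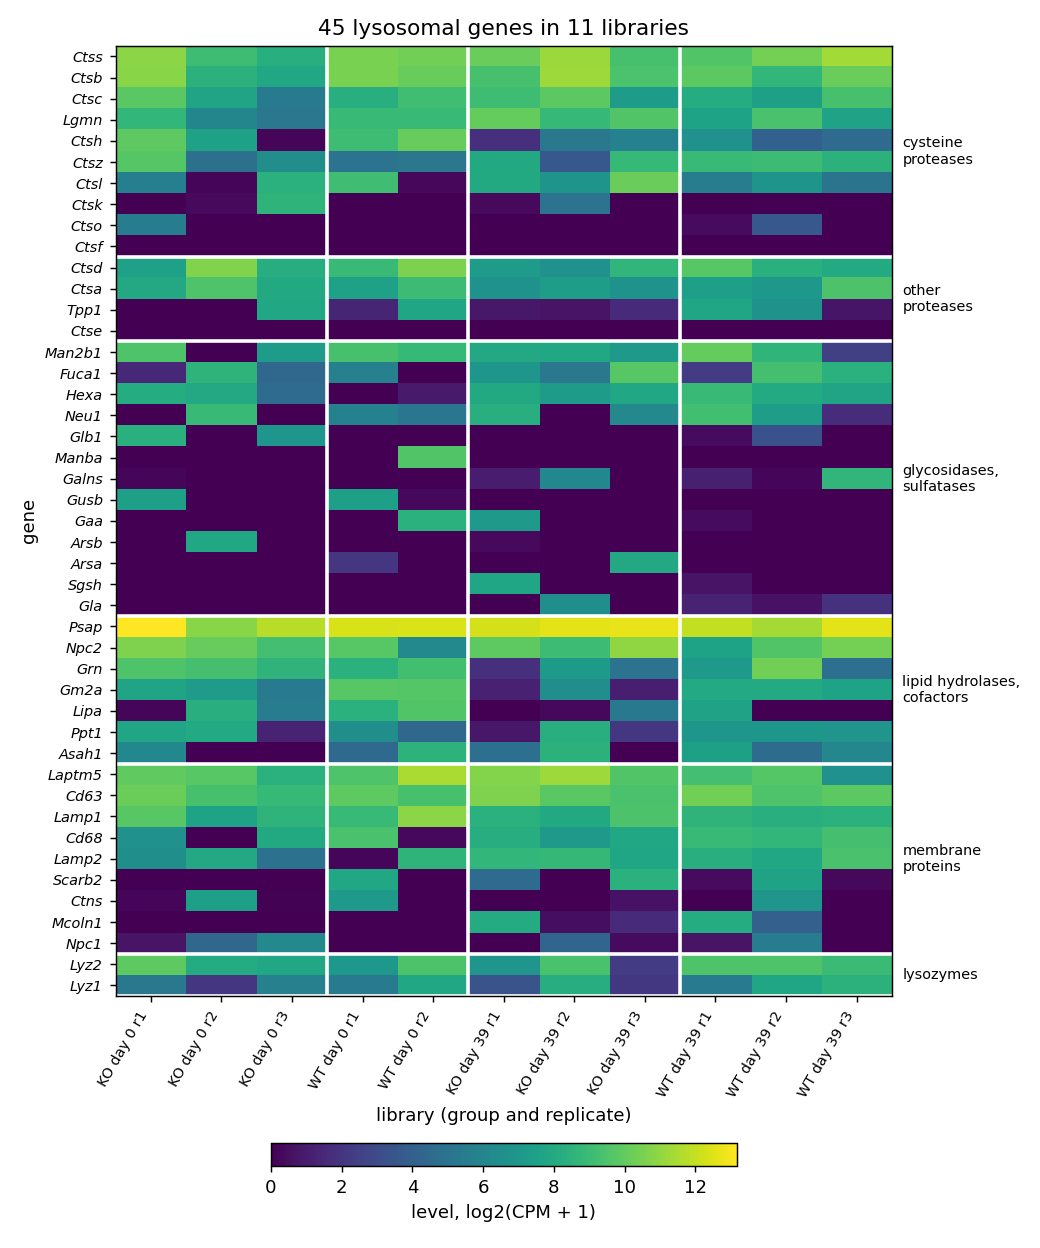
Level of each of the 45 lysosomal genes (rows, grouped by role) in each library (columns; KO is labelled Csf1r-EP4-/-, r is the replicate number), as log2(CPM + 1); white lines separate groups and roles. Psap is bright in all 11 columns, while most glycosidases and sulfatases are dark in some columns and bright in others of the same group.

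Only a minority of the genes was counted throughout. At least 100 counts in every library were found for 11 of the 45 genes, or 24.4%, against 1.08% of the 23282 listed entries and 3.61% of the 6987 tested genes. They were the proteases Ctsb, Ctsc, Ctss, Lgmn, Ctsa and Ctsd, the membrane proteins Lamp1, Cd63 and Laptm5, and the cofactors Psap and Npc2. By role this was 4 of 10 cysteine proteases, 2 of 4 other proteases, 3 of 9 membrane proteins, 2 of 7 lipid hydrolases and cofactors, 0 of 13 glycosidases and sulfatases and 0 of 2 lysozymes. At the other end, Ctse, an aspartic protease, and Ctsf, a cysteine protease, had 0 counts in all 11 libraries, and 3 counts in a library correspond to 0.196 to 0.911 CPM. Between them, 25 genes, or 55.6%, had at least 1000 counts in 1 library and at most 10 in another, as did 27.1% of the listed entries. Of the 40 tested genes this was 23, or 57.5%, against 74.3% of all tested genes. Manba, which encodes beta-mannosidase, had 3318 counts in WT replicate 2 of day 0 and 0 in the other 10 libraries. Arsb, which encodes arylsulfatase B, had 1867 counts in labelled knockout replicate 2 of day 0 and at most 1 elsewhere.

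Among the cysteine proteases, 4 genes were counted in every library. In the values that follow, the labelled knockout libraries come before the WT libraries of the same day, each in the order of their replicate numbers. Ctss, the cathepsin that trims the invariant chain in antigen-presenting cells, was at 1901, 533 and 302 CPM against 1439 and 1310.1 at day 0, and at 1152, 2359.9 and 645 against 767, 1359.6 and 2577 at day 39. Ctsb, an abundant endopeptidase, was at 1795, 353 and 241 CPM against 1452 and 1088 at day 0, and at 643, 2424 and 680.3 against 906, 427 and 1132 at day 39. For both genes the labelled knockout libraries of day 0 spanned the WT values, with replicate 1 high and replicates 2 and 3 low, and the groups overlapped at day 39. Ctsc, the dipeptidyl peptidase that activates granule proteases, was at 903, 201 and 43.3 CPM against 313 and 563 at day 0, and at 539.7, 918 and 149 against 280.5, 179 and 643 at day 39. Lgmn, the asparaginyl endopeptidase that matures other cathepsins, was at 418, 65.2 and 36.3 CPM against 467 and 482 at day 0, and at 1071, 449 and 761 against 199, 664 and 194 at day 39. Lgmn was lower in every labelled knockout library than in both WT libraries at day 0, and the groups overlapped at day 39.

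Fold changes of these 4 genes did not pass the test in any contrast, and all but that of Lgmn over time in the labelled knockout were smaller than their errors. They were fitted with the quasi-likelihood test of edgeR on all 11 libraries, and p was adjusted by Benjamini-Hochberg over the 6987 tested genes. Labelled knockout against WT, the log2 fold change of Ctsb was -0.67 ± 1.30 (SE) at day 0 and 0.60 ± 1.18 at day 39, and that of Ctsc was -0.20 ± 2.07 and 0.54 ± 1.86. The corresponding values were -0.59 ± 1.15 and -0.18 ± 1.04 for Ctss and -1.45 ± 2.03 and 1.11 ± 1.86 for Lgmn. Day 39 against day 0, Ctsb gave -0.63 ± 1.30 in WT and 0.65 ± 1.18 in the labelled knockout, and Ctsc gave -0.25 ± 2.07 and 0.49 ± 1.86. Ctss gave 0.19 ± 1.17 and 0.60 ± 1.04, and Lgmn -0.43 ± 2.04 and 2.13 ± 1.92. The smallest edgeR adjusted p over the 6 contrasts was 0.819 for Ctsb, 0.988 for Ctsc, 0.885 for Ctss and 0.584 for Lgmn.

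Of the other cysteine proteases, Ctsh, an aminopeptidase, had 5896, 1442 and 2 counts against 3049 and 4624 at day 0, and 10, 188 and 186 against 332, 87 and 107 at day 39. Its WT libraries of day 0 were above those of day 39 without overlap, and its labelled knockout libraries of day 0 held both its highest and its lowest count. Ctsz, a carboxypeptidase, ranged from 58 to 5104 counts, and Ctsl, an endopeptidase, from 1 to 5180. Ctsk, best known from osteoclasts, had 5770 counts in labelled knockout replicate 3 of day 0, 158 in labelled knockout replicate 2 of day 39 and at most 2 elsewhere. Ctso had 285 counts in labelled knockout replicate 1 of day 0, 61 in WT replicate 2 of day 39 and at most 1 elsewhere.

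Among the remaining proteases, Ctsd, the main aspartic protease of the lysosome, was at 182, 1601 and 293 CPM against 479 and 1510.3 at day 0, and at 147, 99.99 and 403 against 868, 326 and 259 at day 39. Ctsa, the serine carboxypeptidase that protects beta-galactosidase and neuraminidase, was at 244, 729 and 255 CPM against 185 and 517 at day 0, and at 109, 168 and 106 against 173, 129.9 and 728 at day 39. The labelled knockout libraries of day 39 were below those of day 0 for Ctsa, without overlap, and overlapped them for Ctsd. Labelled knockout against WT, the log2 fold change was -0.52 ± 1.77 (SE) at day 0 and -1.16 ± 1.62 at day 39 for Ctsd, and 0.22 ± 2.54 and -1.43 ± 2.30 for Ctsa. Day 39 against day 0 it was -1.04 ± 1.76 in WT and -1.67 ± 1.64 in the labelled knockout for Ctsd, and -0.03 ± 2.52 and -1.68 ± 2.32 for Ctsa. The smallest edgeR adjusted p over the 6 contrasts was 0.568 for Ctsd and 0.838 for Ctsa. Ctsa overlaps the coding genes Neurl2 and Pltp in RefSeq, and Ctsb overlaps Fdft1, so their counts are uncertain to that extent. Tpp1, a tripeptidyl peptidase, had 557 to 3525 counts in 4 libraries and at most 9 in the other 7.

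Psap was the most abundant of the 45 genes in every library. It encodes prosaposin, the precursor of the saposins that present sphingolipids to their hydrolases. Its level was 9173, 1787 and 3492 CPM against 5255 and 5535 at day 0, and 5106, 6269 and 6826 against 3932, 2728 and 6301 at day 39. Labelled knockout replicate 1 of day 0 was the highest and replicate 2 of the same group the lowest, so that this group spanned all other libraries. Npc2, which hands cholesterol to the membrane transporter Npc1, was at 1581, 1086 and 609 CPM against 863 and 72.1 at day 0, and at 969, 521 and 2035 against 197, 779.7 and 1376 at day 39. Its lowest value was in WT replicate 2 of day 0, which was high for Lamp1, Ctsd and Laptm5. Labelled knockout against WT, the log2 fold change of Psap was -0.16 ± 0.62 (SE) at day 0 and 0.49 ± 0.56 at day 39, and that of Npc2 was 1.22 ± 1.44 and 0.58 ± 1.24. Day 39 against day 0, Psap gave -0.32 ± 0.62 in WT and 0.33 ± 0.56 in the labelled knockout, and Npc2 gave 0.75 ± 1.41 and 0.11 ± 1.23. The errors of Psap were the smallest of the 11 genes in each of these comparisons, and its smallest edgeR adjusted p was 0.789, with 0.721 for Npc2.

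Gm2a, the activator protein that lifts ganglioside GM2 to hexosaminidase, was the only one of the 45 genes whose labelled knockout libraries were below the WT libraries at both days without overlap. Its level was 206, 149 and 40.8 CPM in the labelled knockout against 858 and 822 in WT at day 0, and 1.29, 86.2 and 1.15 against 261, 263 and 198 at day 39. In counts this was 1284, 1159 and 623 against 4803 and 3490, and 5, 436 and 4 against 861, 1429 and 904. Of the 6987 tested genes, 0.229% were lower in the labelled knockout in this way and 0.329% were higher. The same separation at each day was seen under all 3 other scalings. The difference did not pass the test: averaged over both days the log2 fold change was -2.85 ± 1.91 (SE) with an edgeR adjusted p of 0.480. By day it was -2.67 ± 2.76 with 0.642, and -3.03 ± 2.65 with 0.654. The average over days was added after the values had been seen, and it gave a call for 0% of the tested genes. The direction rests on labels that the Ptger4 counts do not follow.

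The other lipid hydrolases and cofactors were counted in some libraries only. Grn, the progranulin that is cut into granulins inside the lysosome, had 4571, 4825 and 5719 counts against 1904 and 2483 at day 0, and 10, 738 and 110 against 446, 7149 and 124 at day 39. The 5 libraries of day 0 ran from 1904 to 5719 counts, and those of day 39 from 10 to 7149. Lipa, the acid lipase that frees cholesterol from its esters, had 1, 2393 and 687 counts against 1926 and 3212 at day 0, and 0, 1 and 135 against 634, 0 and 0 at day 39. Its 3 highest counts were all at day 0, and 3 of the 6 libraries of day 39 had 0. Ppt1, a thioesterase, ranged from 3 to 2036 counts, and Asah1, the acid ceramidase, from 0 to 1745.

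Membrane proteins were led by Laptm5, a transmembrane protein of blood cells, and Cd63, a tetraspanin. Laptm5 was at 996, 853 and 334 CPM in the labelled knockout against 739 and 2924 in WT at day 0, and at 1709.8, 2375 and 757 against 595, 831 and 102 at day 39. Its lowest level was in WT replicate 3 of day 39 and its highest in WT replicate 2 of day 0. Cd63 was at 1187, 654 and 445 CPM against 956 and 644 at day 0, and at 1584, 887 and 659 against 1294, 744 and 917 at day 39. Its ratio of highest to lowest level was the smallest of the 11 widely counted genes, and its groups overlapped in each comparison. Lamp1, which lines the lysosomal wall, was at 852, 200.5 and 382 CPM against 464 and 1895 at day 0, and at 334, 253 and 728 against 378, 319 and 339 at day 39. The 3 WT libraries of day 39 lay close together for Lamp1, and both WT libraries of day 0 were above them.

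The genotype difference of Laptm5 had opposite signs at the 2 days, with a log2 fold change of -1.33 ± 1.24 (SE) at day 0 and 1.66 ± 1.15 at day 39. The difference between these, tested as an interaction, was 2.996 ± 1.69 with an unadjusted p of 0.0758 and an edgeR adjusted p of 0.388, so it did not pass. Without WT replicate 2 of day 0, which leaves 1 WT library at that day, the fold change of day 0 was 0.11, so the opposite signs rest on that library. For Cd63 the genotype differences were -0.07 ± 1.38 and 0.08 ± 1.24, and for Lamp1 -1.30 ± 1.77 and 0.35 ± 1.60. Day 39 against day 0, Laptm5 gave -1.85 ± 1.24 in WT and 1.15 ± 1.14 in the labelled knockout. Cd63 gave 0.30 ± 1.40 and 0.45 ± 1.24, and Lamp1 -1.77 ± 1.77 and -0.13 ± 1.60. The smallest edgeR adjusted p over the 6 contrasts was 0.388 for Laptm5, 0.930 for Cd63 and 0.615 for Lamp1.

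**Figure D2:**
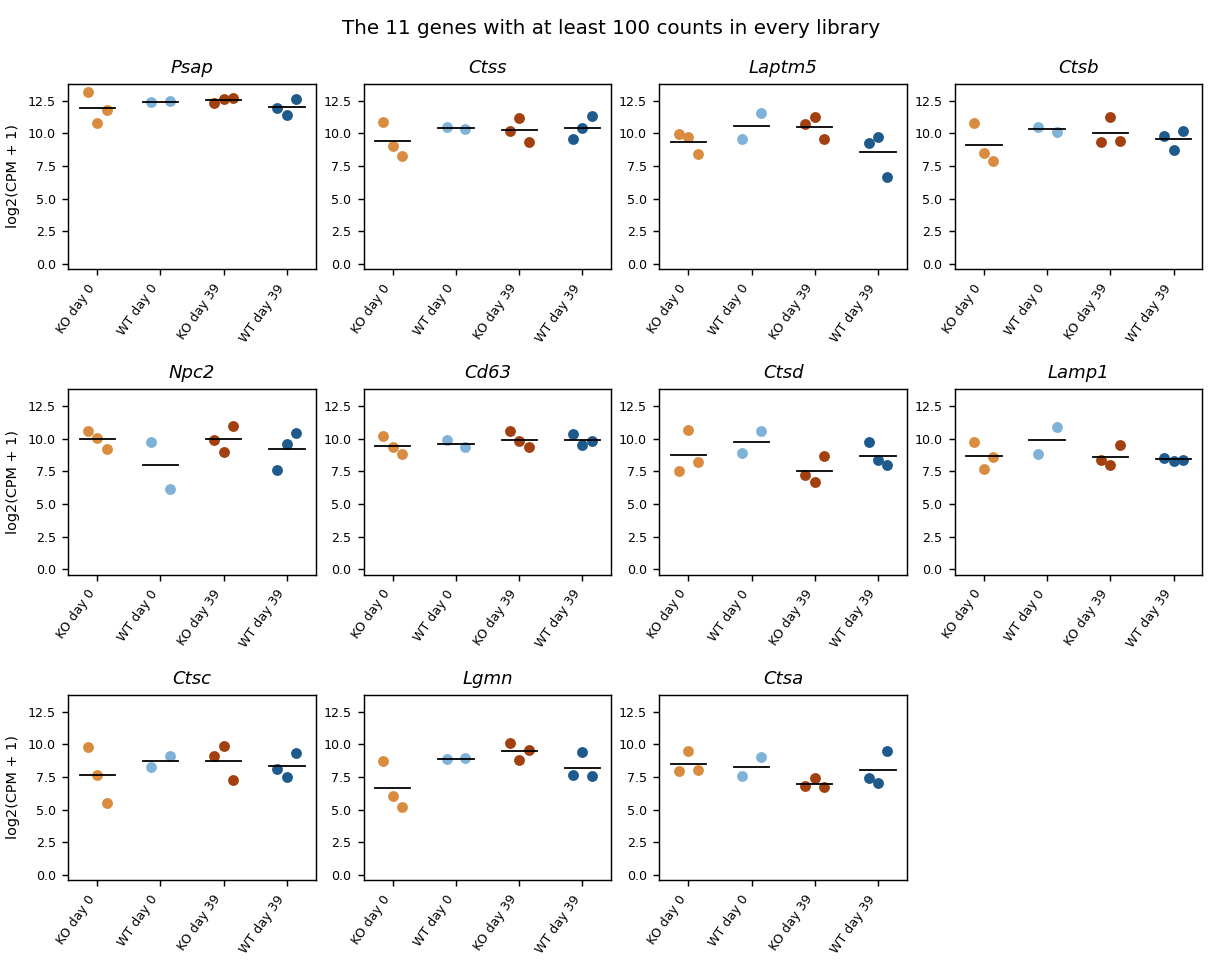
Level of the 11 genes with at least 100 counts in all libraries, as log2(CPM + 1) on a common axis; each point is a library and each bar the mean of a group on this scale. Groups overlap for most genes and comparisons; Psap is the highest in every group.

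The other membrane proteins were uneven. Cd68, the heavily glycosylated protein used as a macrophage marker, had 628, 0 and 3934 counts against 3729 and 1 at day 0, and 1127, 681 and 784 against 1522, 2243 and 2795 at day 39. It was at 0 or 1 count in 1 library of each genotype at day 0 and had at least 628 counts in every other library. Lamp2, a relative of Lamp1 that also serves chaperone-mediated autophagy, had 1 count in WT replicate 1 of day 0 and 457 to 3089 elsewhere. Npc1, the cholesterol transporter fed by Npc2, had 0 counts in 4 libraries and 1108 at most. Ctns, the cystine exporter, had 623 to 1320 counts in 3 libraries and at most 2 in the other 8. Mcoln1, the calcium channel of the lysosome, had 0, 0 and 0 counts against 0 and 0 at day 0, and 1053, 2 and 7 against 931, 83 and 0 at day 39. Scarb2, the receptor that carries beta-glucocerebrosidase to the lysosome, had 0, 0 and 0 counts against 1305 and 0 at day 0, and 91, 0 and 1184 against 1, 1050 and 1 at day 39.

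None of the 13 glycosidases and sulfatases reached 100 counts in all libraries, and 10 of them had at least 1000 counts in 1 library and at most 10 in another. Man2b1, the lysosomal alpha-mannosidase, had 4683, 0 and 2332 counts against 3634 and 1937 at day 0, and 953, 1174 and 483 against 3496, 2089 and 21 at day 39. It had fewer than 100 counts in 1 library of each of 2 groups. Hexa, the alpha chain of hexosaminidase that works with Gm2a, had 1735, 1911 and 357 counts against 0 and 4 at day 0, and 987, 782 and 830 against 1567, 1451 and 930 at day 39. The 2 WT libraries of day 0 thus stood apart from the 9 others, which all had at least 357 counts. Fuca1, a fucosidase, ranged from 0 to 3371 counts and Neu1, a sialidase, from 0 to 3809. Glb1, the beta-galactosidase, had 2058 and 1838 counts in labelled knockout replicates 1 and 3 of day 0, 48 in WT replicate 2 of day 39 and at most 1 elsewhere. Gusb, the beta-glucuronidase, had 1061 counts in labelled knockout replicate 1 and 961 in WT replicate 1, both of day 0, and at most 1 elsewhere. Gaa, the acid alpha-glucosidase, had 1423 counts in WT replicate 2 of day 0, 508 in labelled knockout replicate 1 of day 39 and at most 1 elsewhere. Arsa, the arylsulfatase of sulfatide breakdown, had 858 counts in labelled knockout replicate 3 of day 39, 18 in WT replicate 1 of day 0 and 0 elsewhere. Galns, a sulfatase of keratan sulfate, and Gla, the alpha-galactosidase, exceeded 100 counts in 2 libraries and 1 library, all of day 39. Sgsh, the heparan sulfatase, had 809 counts in labelled knockout replicate 1 of day 39 and at most 2 elsewhere, and its counts were the same as those of the overlapping gene Card14 in all 11 libraries, so they cannot be assigned to either.

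The lysozymes Lyz2, the form of macrophages, and Lyz1, the form known from Paneth cells, have nearly identical sequences, so the split of reads between them is uncertain. Lyz2 had 5963, 2162 and 3663 counts against 710 and 3094 at day 0, and 449, 3396 and 14 against 2480, 4057 and 2287 at day 39. Lyz1 had 232, 25 and 808 counts against 232 and 960 at day 0, and 37, 1496 and 12 against 134, 1138 and 1578 at day 39. Labelled knockout replicate 3 of day 39 had the fewest counts of all libraries for both. The 4 listed markers of Paneth-type cells had 0 counts in all libraries.

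Between genotypes, no lysosomal gene passed the test at either day. At day 0, 0 of 40 tested genes passed with edgeR, against 0.0143% of all tested genes, and 2 had an unadjusted p under 0.05, against 7.99%. DESeq2 called 1, against 8.86% of all tested genes, and limma-voom 0, against 2.55%. The 2 with an unadjusted p under 0.05 were Scarb2 (0.0219) and Gaa (0.024), and the DESeq2 call was Scarb2, which had 1305 counts in 1 WT library and 0 in the 4 other libraries of day 0. At day 39, 0 of 40 passed, against 0.0286%, and 1 had an unadjusted p under 0.05, against 7.28%. DESeq2 called 0, against 4.57%, and limma-voom 0, against 0.487%. The smallest unadjusted p were those of Arsa (0.0385) and Ctsk (0.0749), each counted in 1 or 2 of the 6 libraries. The median log2 fold change of the 40 genes was -0.35 at day 0, with 14 higher and 24 lower in the labelled knockout, and that of all tested genes was 1.08. At day 39 these medians were -0.19, with 16 higher and 23 lower, and 0. The day 0 median of all genes depended on the scaling, with 0.19 under the size factors of DESeq2, where that of the lysosomal genes was -1.97.

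Groups without overlap between the genotypes were counted among the 40 tested lysosomal genes, and each count is set beside the share of all tested genes. At day 0 the labelled knockout was higher without overlap for 2 lysosomal genes, Hexa and Npc1, against 6.73% of all tested genes, and lower for 3, Lipa, Lgmn and Gm2a, against 5.25%. For Npc1, with 4, 151 and 1108 counts against 0 and 0, few reads decide the separation. Lgmn was no longer separate under the size factors of DESeq2 or under library size alone, and 6 more genes, among them Ctsb and Ctss, became separate under upper-quartile scaling, where 8.19% of all tested genes were lower without overlap. At day 39 it was higher for 0, against 3.41%, and lower for 2, Cd68 and Gm2a, against 3.99%. Under the size factors of DESeq2 Cd68 overlapped, and Laptm5 became higher in the labelled knockout without overlap, as were 2.83% of all tested genes under that scaling. The comparisons over time use the same libraries and are not independent of these.

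**Figure D3:**
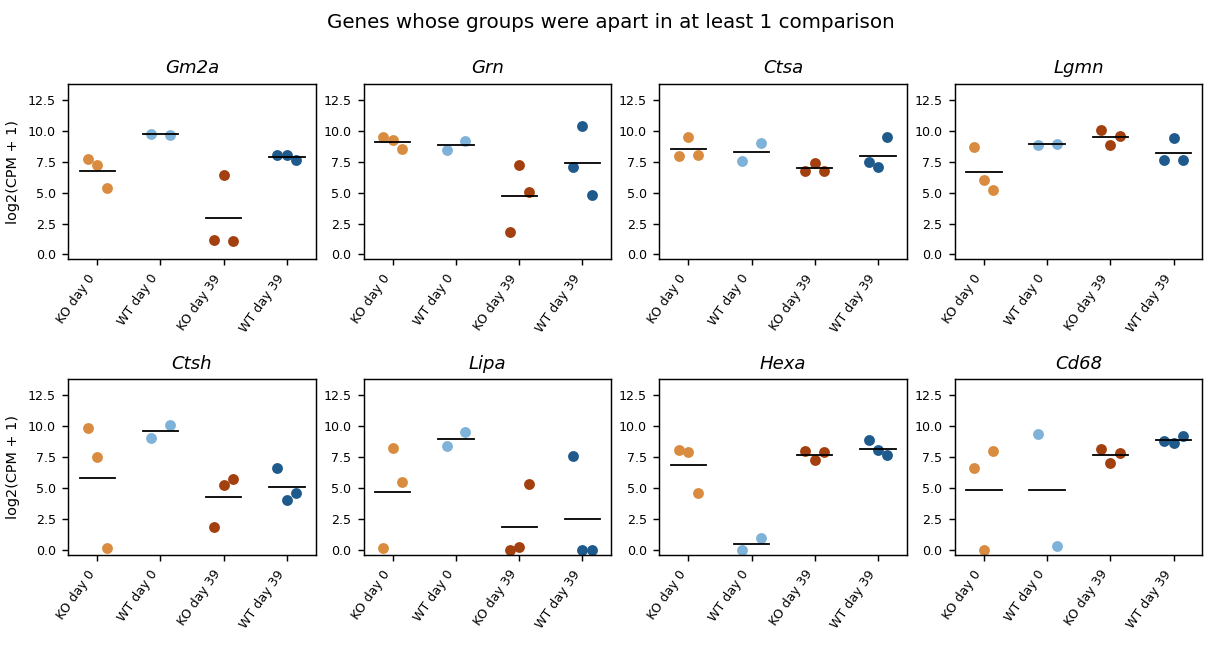
Level of 8 genes whose groups did not overlap in at least 1 comparison, as log2(CPM + 1) on a common axis; each point is a library and each bar the mean of a group on this scale. Gm2a in the labelled knockout lies below WT at both days, Hexa is near 0 in the 2 WT libraries of day 0 alone, and Ctsh and Lipa hold a point near 0 beside a high one in the labelled knockout of day 0.

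Between day 0 and day 39, no lysosomal gene passed the edgeR test either. In WT 0 of 40 passed, against 0.0143% of all tested genes, and 1 had an unadjusted p under 0.05, against 6.68%. DESeq2 called 1, against 12.9%, and limma-voom 1, against 2.42%. The smallest unadjusted p were those of Gusb (0.0396) and Hexa (0.0577), and Hexa was the gene that both other tools called, with an adjusted p of 0.00993 in DESeq2 and 0.0271 in limma-voom. The call rests on the 2 WT libraries of day 0, with 0 and 4 Hexa counts against 930 to 1567 at day 39. In the labelled knockout 0 of 40 passed, against 0.157%, and 8 had an unadjusted p under 0.05, against 18.2%, which is near the share of the 40. DESeq2 called 2, against 11.7%, and limma-voom 0, against 2.96%. The smallest unadjusted p were Scarb2 (0.0205) and Mcoln1 (0.0268), and DESeq2 called Scarb2 and Glb1, which were at most at 10 counts in 7 and 8 of the 11 libraries.

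Averaged over the genotypes, day 39 against day 0 gave 0 of 40 calls with edgeR, against 0.301% of all tested genes. An unadjusted p under 0.05 was found for 5 genes, against 19.2% of all tested genes, and Gusb had the smallest at 0.004 (edgeR adjusted p 0.172), followed by Mcoln1 at 0.00856 (0.192). DESeq2 called 2, Scarb2 and Hexa, against 16.3% of all tested genes, and limma-voom called 1, Hexa, against 2.89%. The change of the genotype difference between the days gave 0 calls, against 0% of all tested genes, with 5 lysosomal genes under an unadjusted 0.05, against 14.4%, led by Gaa (0.00547) and Arsa (0.00954). DESeq2 called 2, Scarb2 and Glb1, against 8.4%, and limma-voom 0, against 0.272%. The median log2 fold change of the 40 genes over time was 0.19, with 23 higher and 17 lower at day 39, beside 0.76 for all tested genes. Under upper-quartile scaling the split was 13 higher and 27 lower. In WT it was 0.01, with 20 higher and 19 lower, beside 1.64, but -0.99 (13 higher, 26 lower) under the size factors of DESeq2 and -1.57 (10 higher, 29 lower) under upper-quartile scaling, where the medians of all tested genes were 2.16 and 0.48. In the labelled knockout it was 0.17, with 21 higher and 19 lower, beside 0, and 1.11 (25 higher, 15 lower), beside 1.23, under the size factors of DESeq2.

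Without overlap, day 39 was above day 0 in WT for 5 genes, Ctsz, Hexa, Gla, Ppt1 and Galns, against 12.7% of all tested genes. It was below for 5, Ctsh, Lamp1, Gusb, Lipa and Gm2a, against 4.72%. For Gla, with 5, 3 and 12 counts against 0 and 0, for Galns, with 4, 1 and 1875 against 0 and 0, and for Gusb, with 0, 0 and 0 against 961 and 1, few reads decide the separation. Ppt1 overlapped under all 3 other scalings, and Lamp1, Lipa and Gm2a overlapped under the size factors of DESeq2. Laptm5 became lower without overlap under library size alone, against 5.22% of all tested genes. Under upper-quartile scaling 11 genes were lower, with Ctsb, Ctsd, Cd63, Man2b1, Psap and Laptm5 added, against 8.52%. In the labelled knockout it was above for 2, Lgmn and Mcoln1, against 8.07%, and below for 2, Ctsa and Grn, against 3.21%. For Mcoln1, whose counts are given above, few reads decide the separation. Lgmn, Ctsa and Grn overlapped under the size factors of DESeq2, and Lgmn also under upper-quartile scaling. Under the size factors of DESeq2, 5 genes were above, with Ctsl, Lamp2, Cd68 and Laptm5 added, against 10% of all tested genes. Over all 5 libraries of day 0 and all 6 of day 39, 0 lysosomal genes were separate, against 1.6% of the tested genes higher and 0.157% lower at day 39.

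Of 55 log2 fold changes, for the 11 widely counted genes in 5 contrasts, 29 changed sign when 1 library was left out and 14 under another scaling, which shifts all genes of a contrast together. Of the 55, 0 passed the threshold under any alternative. Labelled knockout replicate 3 of day 0 had the lowest level of 5 of the 11 genes, and replicate 1 of the same group was among the 2 highest for 5 of them.

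Summed over the 45 genes, the level was 25048, 11686 and 8901 CPM in the labelled knockout against 17534 and 23370 CPM in WT at day 0, with group means of 15212 ± 8631 (SD, n = 3) and 20452 ± 4126 (SD, n = 2). At day 39 it was 16316, 19958 and 17834 CPM against 15284, 14384 and 18485, with means of 18036 ± 1829 and 16051 ± 2155 (SD, n = 3 each). The largest spread was within the labelled knockout of day 0, whose libraries were the highest and the 2 lowest of all 11. The summed level of the macrophage markers outside the 45 genes was 15278 CPM in the highest of these libraries and 4361 and 3668 CPM in the others. The stromal markers stood at 4370 CPM in that library and at 18508 and 20712 CPM in the other 2. The skeletal muscle markers stood at 2046, 21654 and 18385 CPM in the same order. In the WT libraries of day 0 the higher stromal sum went with the higher lysosomal sum. Their stromal markers stood at 3049 and 15211 CPM, where the 45 genes summed to 17534 and 23370 CPM. Their macrophage markers stood at 10007 and 7162 CPM, and their skeletal muscle markers at 1752 and 6531 CPM. Of the 8 stromal markers, 3 had at least 100 counts in all libraries: Col1a1, Col1a2 and Col3a1, the collagen chains of fibroblasts. The others reached 100 counts in fewer libraries: Dcn in 10, Acta2 in 8, Lum and Pdgfra in 3 each and Tagln in 1. Epithelial markers summed to 466 to 2144 CPM at day 0 and 2119 to 15180 CPM at day 39. Monocyte markers summed to 89.2 ± 85.8 CPM (SD, n = 3) in the labelled knockout and 763 ± 648 CPM (SD, n = 2) in WT at day 0. At day 39 it was 935 ± 459 and 345 ± 297 CPM (SD, n = 3 each). The part of these other cell types in the levels of the lysosomal genes was not tested. In bulk libraries fewer cells of a type and less RNA per cell cannot be told apart.

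**Figure D4:**
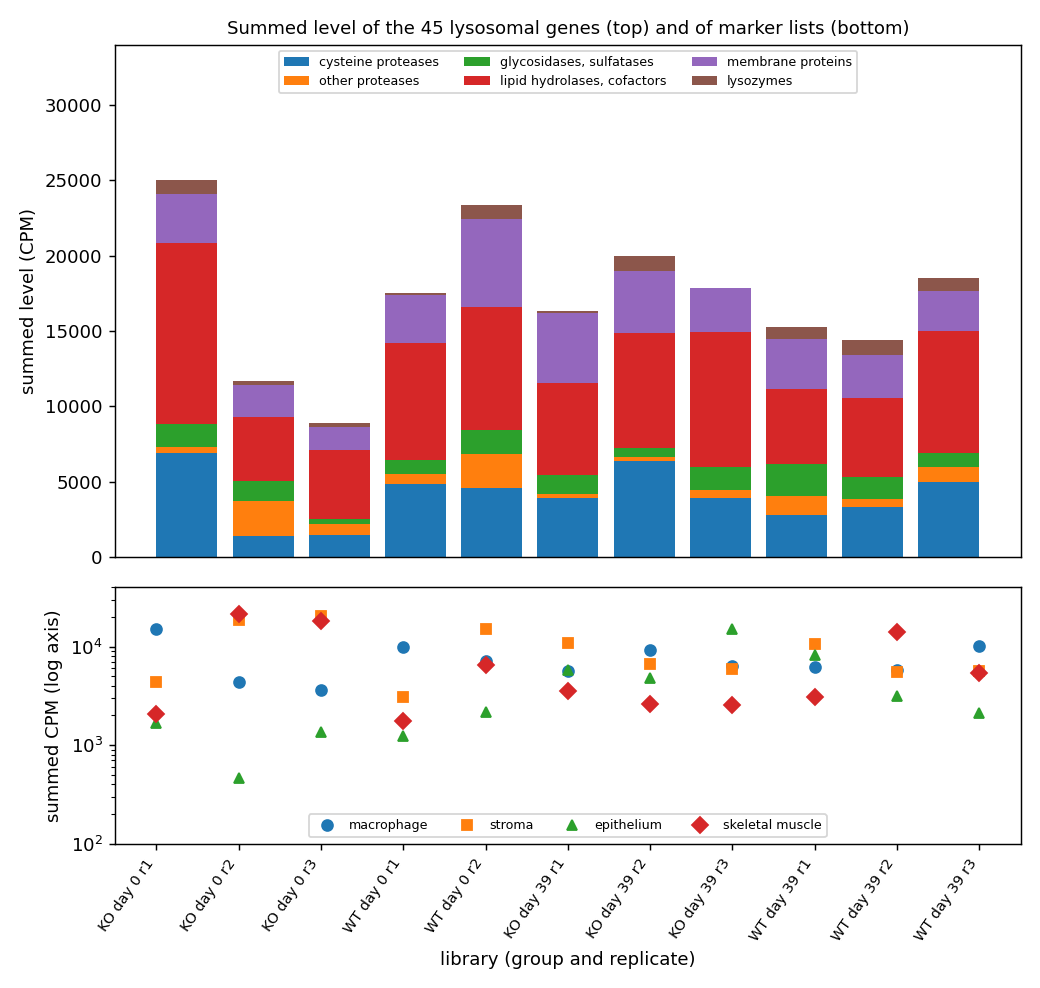
Top: summed level of the 45 lysosomal genes in CPM per library, stacked by role; bottom: summed CPM of marker genes of 4 cell types in the same libraries, on a log axis. Replicates 2 and 3 of the labelled knockout at day 0 have the lowest lysosomal sums (11686 and 8901 CPM), the lowest macrophage sums and the highest stromal and muscle sums. WT replicate 2 of day 0 has the next highest stromal sum (15211 CPM) and a lysosomal sum of 23370 CPM.

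The roles differed in their share of this sum. Lipid hydrolases and cofactors, mostly Psap, summed to 6919 ± 4388 CPM (SD, n = 3) in the labelled knockout and 7966 ± 275 CPM (SD, n = 2) in WT at day 0, and to 7577 ± 1418 and 6112 ± 1712 CPM (SD, n = 3 each) at day 39. Cysteine proteases summed to 3226 ± 3165 and 4688 ± 167 CPM at day 0 and to 4721 ± 1406 and 3672 ± 1141 CPM at day 39, with the same numbers of libraries. Membrane proteins summed to 2299 ± 864 and 4516 ± 1870 CPM at day 0 and to 3888 ± 875 and 2960.5 ± 342 CPM at day 39. Their labelled knockout libraries reached 3230 CPM at most at day 0 and the lower WT library 3193 CPM. Glycosidases and sulfatases together summed to between 317 and 2119 CPM in a library, although they are the largest of the 6 roles by number of genes. They summed to 1066 ± 656 and 1269 ± 481 CPM at day 0. At day 39 it was 1138 ± 495 and 1507 ± 581 CPM. Other proteases summed to 1178 ± 1013 and 1451 ± 1111 CPM at day 0. At day 39 it was 346 ± 144 and 934 ± 353 CPM. Lysozymes summed to 523 ± 409 and 562 ± 556 CPM at day 0. At day 39 it was 367 ± 523 and 865 ± 82.6 CPM. In these roles the labelled knockout had the lower mean at both days.

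Genes that work with these hydrolases were taken from 6 lists. None of their 79 tested genes passed the edgeR test in any of the 6 contrasts. Depending on the contrast, 3 to 10 of the 79 had an unadjusted p under 0.05, against 6.68% to 19.2% of all tested genes. DESeq2 called 6 to 11 of them, against 4.57% to 16.3%, and limma-voom 0 to 4, against 0.272% to 2.96%. Of 17 subunits of the V-ATPase, the pump that acidifies the lysosome, 15 were tested and only Atp6v0c, of its membrane ring, had at least 100 counts in every library, from 56.3 to 719 CPM. Of 17 genes of nutrient sensing at the lysosome and of TFEB and its relatives, 12 were tested, and of 9 genes of mannose 6-phosphate sorting 8 were tested, with none counted throughout. Of 10 protease inhibitors and related genes 6 were tested, and Cst3, the secreted cystatin C, was counted throughout, from 165 to 1454 CPM. Of 32 further lysosomal hydrolases 19 were tested, with none counted throughout, and of 27 further membrane proteins 19 were tested, with Laptm4a (40.7 to 1736 CPM) and Cd81 (275 to 1392 CPM) counted throughout. Across labelled knockout and WT at day 0 the log2 fold change was -0.01 ± 1.47 (SE) for Cst3, -0.99 ± 1.46 for Cd81, -0.71 ± 1.47 for Laptm4a and 0.07 ± 2.78 for Atp6v0c.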

How the data were processed

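Colonic macrophage RNA was sequenced in 11 libraries made with a Lexogen QuantSeq kit, per the labels' protocols. The deposited values are raw read counts per gene, 1 table per library, and the submitters' processing notes name Bowtie2, edgeR and the build hg19, which is a human build; how it was used with mouse reads is not given in the sources used here. Groups and days were taken from the sample titles, which disagree with the names of some deposited files on the later day and, for WT replicate 2 of day 0, on the replicate number; the block and the pairing check used the titles' numbers. From the deposited counts, genes were filtered with filterByExpr, scaled by TMM and fitted with the robust quasi-likelihood test of edgeR 4.0.16 (R 4.3.3) on all 11 libraries, with 1 coefficient per group. Tests were two-sided, and p was adjusted by Benjamini-Hochberg over the 6987 tested genes, with a threshold of 0.05. The common biological coefficient of variation was 2.48, and SE was taken from each fold change and its F statistic (the absolute log2 value over √F). The pipeline was also run on simulated counts. No outcome of that run is given here, so it does not show which changes these libraries could detect. DESeq2 1.42.0, limma 3.58.1 (voom), other scalings and filters, the replicate number as a block and leaving out each library were the alternatives. No pairing by replicate number was seen, and none was used in the main fit. With so few libraries in a group, the check cannot exclude a pairing. The CPM given for 3 counts covers counting error only, while SE and SD hold the spread between libraries.

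The 45 genes, their roles and all lists were chosen with earlier results of these data known. Full values were given for genes with at least 100 counts in every library and for genes called by edgeR in any contrast, of which there were 0. Of the other tested genes with a group mean of at least 100 CPM, the 6 with the highest such mean had their counts given, and the 2 smallest unadjusted p were named in a contrast without a call. Other counts and the fold change of Gm2a were added after their values were seen. Of the 45 genes, 17 overlap another gene in RefSeq and 10 overlap a coding gene, and whether counting used the strand is not given in the sources used here.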

Additional observations from a re-analysis of the deposited data

How the results depend on the processing

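No lysosomal gene passed the threshold in any of the 6 contrasts under the other scalings, filters, sample sets, the non-robust test, any left-out library or the replicate block. The exceptions were the other tools: DESeq2 called 1 at day 0 between genotypes, 0 at day 39, 1 over time in WT, 2 over time in the labelled knockout, 2 for the interaction and 2 for the mean over time, and limma-voom called 1 over time in WT and 1 for the mean over time. Leaving out each library in turn gave 0 lysosomal calls each time. Without either WT library of day 0, or without the Ptger4 libraries, 1 group of day 0 holds 1 library that the fit assumes to vary like the other groups, so those counts show little about stability. None of the 10 calls by other tools was of a gene with at least 100 counts in all libraries. For the pathway lists, DESeq2 called 9, 6, 10, 6, 9 and 11 of 79 genes in the same order of contrasts, against 8.86%, 4.57%, 12.9%, 11.7%, 8.4% and 16.3% of all tested genes. Limma-voom called 2 at day 0, 4 over time in the labelled knockout and 2 for the mean over time, against 2.55%, 2.96% and 2.89%. With 1 library left out the lists gave 0 to 1 calls for the mean over time and 0 for the others.

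Counts over all tested genes moved more. Those made without the Ptger4 libraries, or without either WT library of day 0, again leave 1 library in a group of day 0. The fit assumes that it varies like the other groups, so these counts show little about stability. Between genotypes at day 0, 1 gene was called, with 619 by DESeq2, 178 by limma-voom, 2 by the non-robust test, 0 under the size factors of DESeq2, library size alone, the unfiltered table, the filter on a mean of 10 counts, a fit on the 2 groups alone, the replicate block or without the 3 labelled knockout libraries with Ptger4 counts, and 0 to 5 with 1 library left out. At day 39 it was 2, with 319 by DESeq2, 34 by limma-voom, 1 under the replicate block, 0 under the size factors of DESeq2, upper quartile, the unfiltered table, the filter on a mean of 10 counts, a fit on the 2 groups alone or without the Ptger4 libraries, and 0 to 2 with 1 library left out. Over time in WT it was 1, with 902 by DESeq2, 169 by limma-voom, 4 by the non-robust test, 2 in a fit on the 2 groups alone, 0 under the size factors of DESeq2, library size alone, the unfiltered table, the filter on a mean of 10 counts or the replicate block, and 0 to 1 with 1 library left out. Over time in the labelled knockout it was 11, with 815 by DESeq2, 207 by limma-voom, 2 under the size factors of DESeq2, 0 under upper quartile or without a filter, 5 under the filter on a mean of 10 counts or a fit on the 2 groups alone, 7 without the Ptger4 libraries, and 5 to 15 with 1 library left out. For the interaction it was 0, with 587 by DESeq2, 19 by limma-voom, 1 under the size factors of DESeq2, 2 under library size alone, 5 under upper quartile, 4 by the non-robust test, and 0 to 8 with 1 library left out. For the mean over time it was 21, with 1137 by DESeq2, 202 by limma-voom, 59 by the non-robust test, 51 under upper quartile, 6 under the size factors of DESeq2, 9 under library size alone, 2 without a filter, 3 under the filter on a mean of 10 counts, 7 under the replicate block, 4 without the Ptger4 libraries, and 1 to 62 with 1 library left out. The highest of these came without labelled knockout replicate 1 of day 0. The cause was not tested.

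Over 15 pairs of libraries with the same number in different groups, the correlation of deviations ran from -0.01 to 0.07, so the number was not taken as a pairing. The block left 0 lysosomal genes called. The sum over the 45 genes without Psap was 10394 CPM in the labelled knockout and 15057 CPM in WT at day 0, and 11969 CPM and 11731 CPM at day 39. On library size alone it was 15532 and 21018 CPM at day 0 and 15869 and 15252 CPM at day 39, with Psap. With a minimum of 1 count 20 genes were counted in every library, and with 1000 counts 5. Depth limits genes with few counts: 3 counts correspond to 0.196 to 0.911 CPM.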

Other observations

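Hexa and Gm2a, whose products act together on ganglioside GM2, had opposite extremes in the same libraries. The 2 wild-type libraries of day 0 had the highest Gm2a levels of all 11, at 858 and 822 CPM, and the 2 lowest Hexa levels, at 0 and 0.942 CPM. Hexa overlaps Tmem202 in RefSeq. This pattern was noticed in the data and was not tested.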
